A study of Oreochromis niloticus with 6 samples.

Results

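The 10 most abundant rows with a krt name in the gill of Nile tilapia (Oreochromis niloticus) were compared between fish kept at low oxygen and fish kept in aerated water. A row counted as a keratin where its gene name began with krt followed by a digit or a t, and the 10 rows selected on the highest mean FPKM over all 6 libraries were kept. They were krt4, krt5, krt8, krt15, krtt1c19e, krt97, krt18, krt1-c5 and 2 rows named krt222, out of 11 rows with such a name and 40538 rows in all. Keratin loci under other names fell outside the rule, among them cyt1, at a mean of 1336 FPKM above krt4 at 1300 FPKM. The rows were thus chosen by their mean level, so their abundance is given as a description. The selection rule itself does not use the difference between the groups.

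Keratins are the intermediate filament proteins of epithelial cells. A filament is built from pairs of an acidic type I and a basic type II keratin, and desmosomes and hemidesmosomes anchor the filaments at the cell surface, which gives an epithelium its mechanical strength. In mammals, keratins 8 and 18 pair in simple epithelia and keratins 5 and 15 belong to the basal layer of stratified epithelia. The fish gill is covered by a thin epithelium of pavement cells, with ionocytes and mucous cells between them, over vessels, pillar cells, cartilage and connective tissue.

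The fish belonged to the GIFT strain, farmed tilapia improved by selective breeding, and carried no transgene by the labels. RNA-seq libraries of whole gill numbered 3 labelled hypoxia stress, from water lowered within 30 min to 1.0 ± 0.1 mg/L dissolved oxygen, and 3 labelled control, from water at 5 mg/L, all sampled at 96 h. The labels differ on the layout, with 3 tanks of 15 fish per group in one text and 4 replicates per group and 30 fish per tank in another. Which tank or fish gave each library, and any pooling of fish, is not stated there, so the p-values measure only the spread between these libraries, which may be technical. Levels are FPKM, a fragment count corrected for the length of the transcript and for the size of the library, so they can be compared between genes.

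The groups are called by their labels, because egln3, a prolyl hydroxylase gene normally induced through the hypoxia-inducible factor, lay the other way. It was at 3.25, 2.55 and 3.95 FPKM in the libraries labelled hypoxia and at 112, 50.4 and 46.4 FPKM in those labelled control (limma adjusted p = 0.00923). Whether the labels of the groups were exchanged cannot be told from these libraries. Exchanged labels would turn every direction given here, and the ratio of 3.86 given for krtt1c19e would be 0.259. Hemoglobin rows held 5.22%, 12.3% and 6.60% of the summed FPKM in the libraries labelled hypoxia, and 8.37%, 0.670% and 0.766% in those labelled control. The number of sequenced fragments is unknown.

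One of the 10 rows, krtt1c19e, rose in the libraries labelled hypoxia, to 3.86 times the mean of the libraries labelled control. The other 9 rows did not pass the test, although each had a higher mean in those libraries. In limma's test with Benjamini-Hochberg adjustment over 25111 rows, 1 of the 10 keratin rows was called higher, against 3.46% of all tested rows, and 0 were called lower, against 3.3%. Both directions together made 6.77% of the rows, and 7 of the 10 keratin rows, all higher, had an unadjusted p under 0.05, against 25.4% of all tested rows in either direction and 14.2% in the higher one. The libraries labelled hypoxia lay entirely above the control libraries in 7 of the 10, against 19.1% of all tested rows, and entirely below in 0, against 14%. One of these 7, krt222 MSTRG.21964, averaged 0.961 FPKM in the libraries labelled control and reached the minimum of 1 FPKM for testing only through those labelled hypoxia, where it is high. Among the other 9 rows, 6 lay entirely above and 6 had an unadjusted p under 0.05. Differences were taken on the log2(FPKM + 1) scale, on which rows of low level appear to change less than they do. The difference was above 0 in 10 of 10 rows, against 54.3%, and above 1 in 1 of 10, against 6.02%. The median difference of the 10 rows was 0.58, against 0.05 over all rows tested. Without krt222 MSTRG.21964 the difference was above 0 in 9 of 9 rows, with a median of 0.55. The summed FPKM was 466826 to 483691 in the libraries labelled hypoxia and 438405 to 455738 in those labelled control. On the TPM scale, where every library has the same sum, the called rows split into 593 higher and 942 lower, against 870 and 829 on the FPKM scale. There the differences of krt4, krt5, krt8 and krt15 were 0.52, 0.44, 0.02 and 0.37. All 10 rows stayed above 0, and the median over all rows was -0.03.

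**Figure D1:**
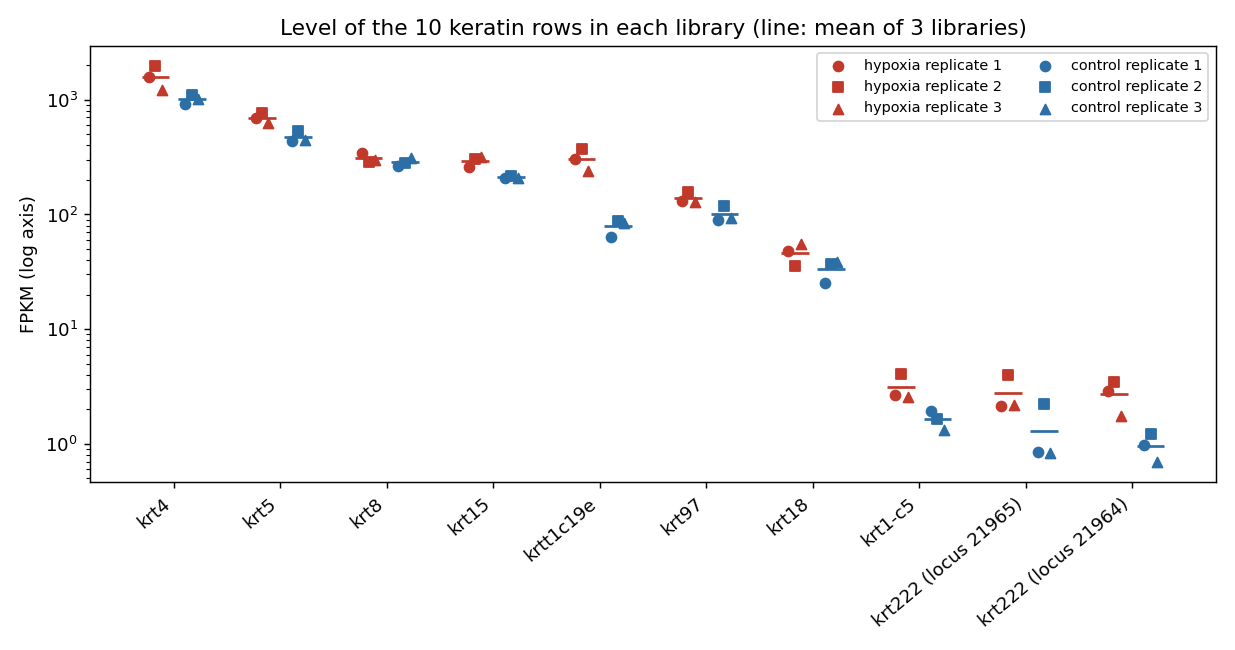
FPKM of each of the 10 keratin rows (log axis) in the 3 libraries labelled hypoxia (red) and the 3 labelled control (blue), with a line at each group's mean. krtt1c19e shows the widest gap, at 238 to 372 FPKM against 64.2 to 87.7 FPKM, while krt8 and krt18 overlap between the groups.

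The type I keratin krtt1c19e (locus MSTRG.6021) is known in zebrafish as a gene of basal skin keratinocytes. It was at 302, 372 and 238 FPKM in the libraries labelled hypoxia and at 64.2, 87.7 and 83.9 FPKM in those labelled control. The lowest hypoxia value was well above the highest control value. The group means were 304 ± 67.2 and 78.6 ± 12.6 FPKM (SD, n = 3 each), a log2 difference of 1.93 ± 0.20 (SE, 95% interval 1.43 to 2.42, limma adjusted p = 0.0117). Without hypoxia replicate 1 the difference was 1.92 and the call was lost (adjusted p = 0.0517), and with any other library left out the adjusted p was 0.0215 to 0.0403. In the libraries labelled hypoxia it ranked 130 to 187 among all rows by level, and in those labelled control 540 to 737. Because whole gill was sequenced, more cells of a type and more RNA per cell cannot be told apart.

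Among the 10 rows, the most abundant type II keratin was krt4 (MSTRG.4972), whose zebrafish counterpart is a gene of the surface epithelium. Its levels were 1565, 1977 and 1213 FPKM in the libraries labelled hypoxia and 926, 1093 and 1022 FPKM in those labelled control. The groups did not overlap, but the hypoxia libraries spread widely, with a coefficient of variation of 24.1% against 8.30% in the control libraries. The log2 difference was 0.62 ± 0.19 (SE, 95% interval 0.15 to 1.09) and missed the threshold (adjusted p = 0.112). It held the first place among the 10 in every library, with 42.1% to 50.6% of their summed level in the libraries labelled hypoxia and 45.9% to 46.4% in those labelled control.

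The second type II keratin of the 10 rows, krt5 (MSTRG.14474), stood at 696, 762 and 622 FPKM in the libraries labelled hypoxia, against 441, 536 and 445 FPKM in the control libraries. All hypoxia values exceeded all control values, and the second place among the 10 was the same in every library. The difference of 0.55 ± 0.13 (SE) narrowly missed the threshold (adjusted p = 0.0605). krt8 (MSTRG.14473), the type II partner of krt18, was the member with the smallest difference. It was at 342, 286 and 300 FPKM in the libraries labelled hypoxia and at 263, 281 and 308 FPKM in the control libraries, so the groups overlapped. Its difference was 0.12 ± 0.11 (SE), with a 95% interval of -0.15 to 0.40 (adjusted p = 0.535), which does not show that the levels were equal.

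Among the type I keratins, krt15 (MSTRG.20735) was at 261, 304 and 317 FPKM in the libraries labelled hypoxia and at 206, 218 and 210 FPKM in those labelled control. These control values were the most alike of any member, with a coefficient of variation of 2.79%. The groups did not overlap, with a difference of 0.47 ± 0.10 (SE), and the adjusted p was 0.0542. krt97 (MSTRG.21963), which carries the table's orthology entry for type I keratins, had 132, 157 and 128 FPKM in the libraries labelled hypoxia, against 89.4, 118 and 92.2 FPKM in the control libraries. Here too the groups were apart, and the difference of 0.47 ± 0.15 (SE) did not pass (adjusted p = 0.116). krt18 (MSTRG.14471) was at 48.1, 35.3 and 55.7 FPKM in the libraries labelled hypoxia and at 25.1, 37.0 and 38.2 FPKM in those labelled control. Its groups overlapped, because hypoxia replicate 2 was below control replicates 2 and 3, and the difference was 0.46 ± 0.23 (SE, adjusted p = 0.276).

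The last 3 rows were expressed at a far lower level. krt1-c5 (MSTRG.21343), another type I keratin by its orthology entry, was at 2.68, 4.08 and 2.56 FPKM in the libraries labelled hypoxia and at 1.94, 1.66 and 1.33 FPKM in those labelled control (adjusted p = 0.121). Both krt222 rows are assembled loci without an Ensembl transcript. The first (MSTRG.21965) was at 2.14, 4.01 and 2.17 FPKM, against 0.847, 2.25 and 0.829 FPKM in the control libraries, with overlapping groups (adjusted p = 0.223). The second (MSTRG.21964) was at 2.87, 3.48 and 1.76 FPKM, against 0.970, 1.22 and 0.693 FPKM, without overlap (adjusted p = 0.0848). That row, at a mean of 1.83 FPKM, was the last inside the selection. The only row left outside was another krtt1c19e locus (MSTRG.6014), which was listed at 0 in 5 libraries and at 1.51 FPKM in hypoxia replicate 2, too low to be tested.

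**Figure D2:**
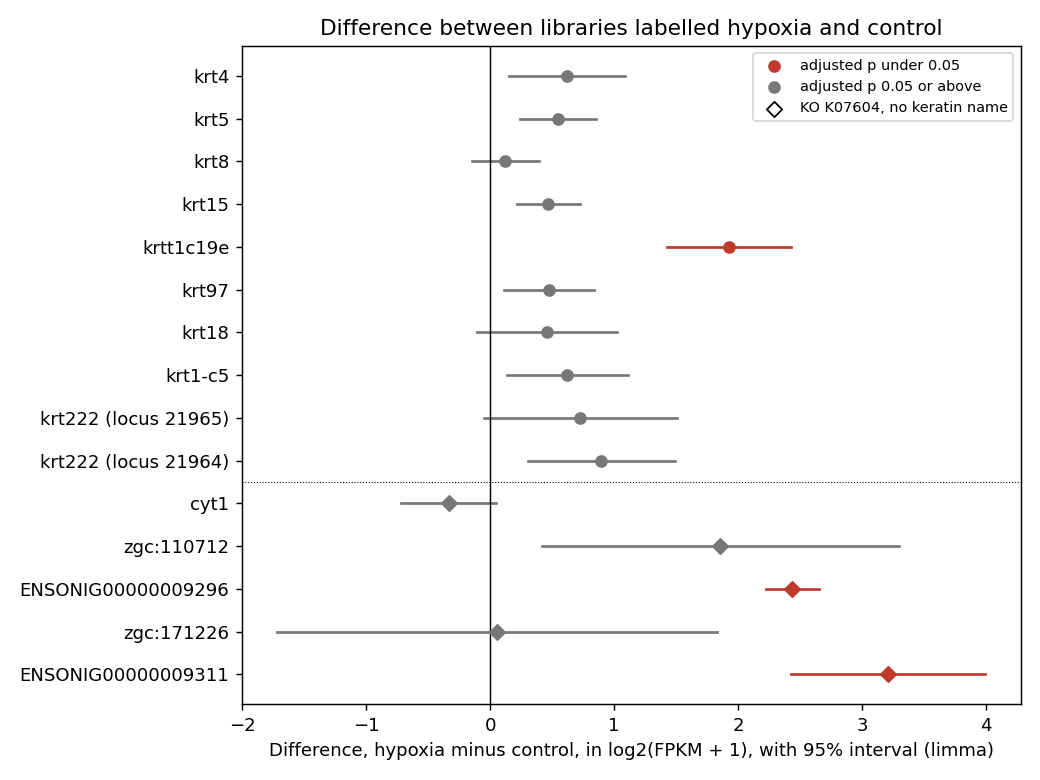
Difference between the libraries labelled hypoxia and control on the log2(FPKM + 1) scale, with limma's 95% interval, for the 10 keratin rows (circles) and for 5 rows that carry the type I keratin orthology entry under another name (diamonds). Red marks an adjusted p under 0.05: krtt1c19e at 1.93, ENSONIG00000009296 at 2.44 and ENSONIG00000009311 at 3.21.

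The 10 rows did not all vary in the same way among libraries of a group. Of the libraries labelled hypoxia, replicate 2 held the highest value in 7 of the 10 rows, yet the lowest in krt8 and krt18. Replicate 3 held the lowest value in 6. Of the control libraries, replicate 2 was highest in 7 rows and replicate 1 lowest in 7. Hypoxia replicate 2 was also the library with the most hemoglobin, at 12.3% of its summed FPKM, and control replicate 2 the one with the least, at 0.670%. The part of blood content in these levels was not tested as a cause. With the hemoglobin rows left out and the libraries rescaled, a choice made after seeing the data, krtt1c19e had a log2 difference of 1.90 (adjusted p = 0.0113). That step changes only the scale of each library, so it cannot show which cells gave the RNA.

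Summed over the 10 rows, keratin made up 3353, 3906 and 2880 FPKM in the libraries labelled hypoxia and 2018, 2376 and 2203 FPKM in those labelled control. The sums of the groups did not overlap, and the ratio of their means was 1.54. As a share of all FPKM, the rows made up 0.718%, 0.812% and 0.595% in the libraries labelled hypoxia and 0.443%, 0.542% and 0.502% in those labelled control. The abundant rows krt4, krt5 and the next in rank together held 74.7% to 79.7% of the sum in the libraries labelled hypoxia and 80.4% to 80.7% in those labelled control.

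Of the 6 members with a mean above 100 FPKM, krtt1c19e and krt8 were those whose share of the sum did not overlap between the groups. krtt1c19e took 9.0%, 9.53% and 8.25% of the keratin sum in the libraries labelled hypoxia and 3.18%, 3.69% and 3.81% in those labelled control. krt8 took 10.2%, 7.34% and 10.4% in the libraries labelled hypoxia and 13.02%, 11.8% and 14.0% in those labelled control, so its share was lower in each library labelled hypoxia than in any control library. By rank within the 10, krtt1c19e stood in the 3rd to 5th place in the libraries labelled hypoxia and in the 6th place in every control library, below krt97.

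**Figure D3:**
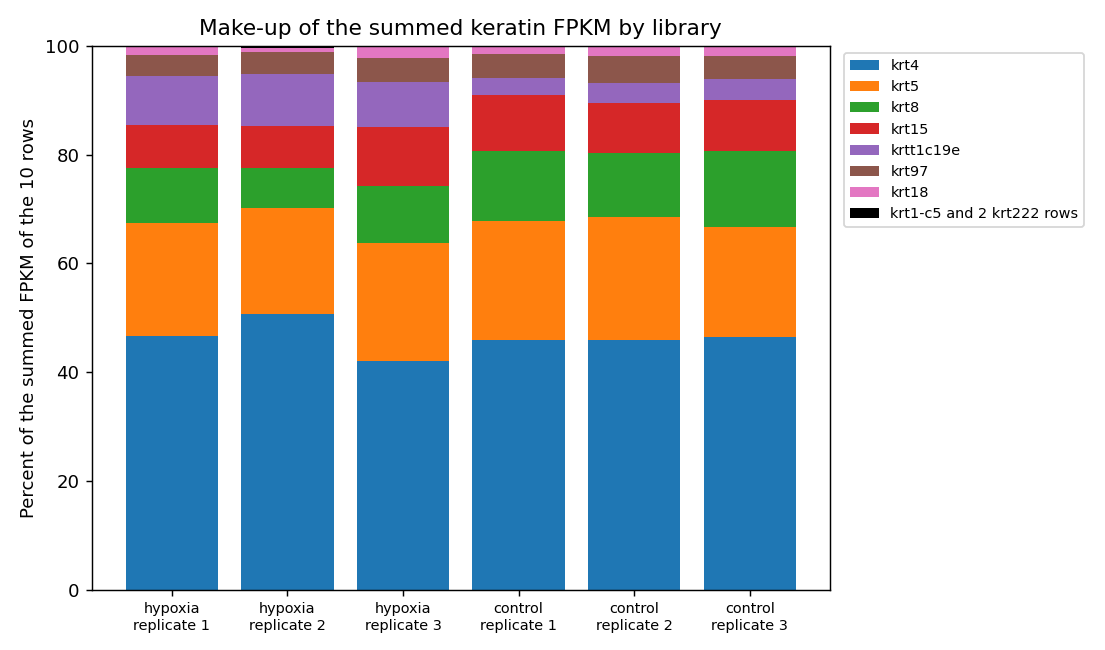
Stacked bars give each row's percent of the summed FPKM of the 10 keratin rows, for the 3 libraries labelled hypoxia and the 3 labelled control. The krtt1c19e band is 8.25% to 9.53% in the libraries labelled hypoxia and 3.18% to 3.81% in those labelled control, while the krt4 band is the largest in every library.

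The level of krtt1c19e was also set against each other row in the same library. It was singled out for its difference, so these ratios are a description with no test. In 7 of the 9 ratios to other members the libraries labelled hypoxia lay above all control libraries, and the ratios to the low krt222 rows overlapped. The ratio to krt15, for example, was 1.16, 1.22 and 0.751 in the libraries labelled hypoxia and 0.311, 0.403 and 0.400 in those labelled control.

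Type I and type II keratins are needed together in a filament, so their sums were set side by side. The type II rows krt4, krt5 and krt8 summed to 2588 ± 445 FPKM in the libraries labelled hypoxia and 1772 ± 140 FPKM in those labelled control (SD, n = 3 each). The type I rows krt15, krtt1c19e, krt97, krt18 and krt1-c5 summed to 786 ± 74.8 FPKM and 425 ± 37.8 FPKM. Of these sums krtt1c19e, the row singled out for its difference, gave 304 ± 67.2 FPKM and 78.6 ± 12.6 FPKM. Type II keratin thus exceeded type I by 3.49, 3.47 and 2.89 times in the libraries labelled hypoxia and by 4.21, 4.13 and 4.17 times in those labelled control, and the groups did not overlap. Within the simple-epithelium pair, krt8 exceeded krt18 by 7.11, 8.13 and 5.38 times in the libraries labelled hypoxia and by 10.46, 7.60 and 8.05 times in those labelled control, where the groups overlapped. No test was made on these sums and ratios. The ratio of type II to type I was not taken without krtt1c19e, so the lower ratio is shown only with that row counted in type I. The log2 differences of the other type I rows krt15, krt97, krt18 and krt1-c5 were 0.47, 0.47, 0.46 and 0.62. Those of the type II rows krt4, krt5 and krt8 were 0.62, 0.55 and 0.12. A shift shared by the other type I rows is thus not shown.

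The excess of type II keratin depends on which loci bear a keratin name. The same orthology entry (K07604) that krt15, krtt1c19e, krt97 and krt1-c5 carry was found on 6 more rows named otherwise. This list was drawn up after the data were seen. It includes cyt1 (MSTRG.6018), in zebrafish a type I cytokeratin of the outer embryonic epithelium, which at a mean of 1336 FPKM was more abundant than krt4 at 1300 FPKM. With these rows added to type I, the ratio of type II to type I was 0.877 ± 0.052 in the libraries labelled hypoxia and 0.814 ± 0.041 in those labelled control (SD, n = 3 each), and the groups overlapped. The 10 named rows are thus not the whole keratin content of these libraries. Rows named otherwise were sought by the type I entry alone, and the entry shared by krt4, krt5 and krt8 was not searched. The ratio with added rows therefore enlarges type I only, and the sum of the 16 rows may miss type II loci. The 16 rows together held 1.18%, 1.32% and 0.982% of all FPKM in the libraries labelled hypoxia and 0.790%, 0.951% and 0.932% in those labelled control.

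Of the 5 rows of this kind that could be tested, 2 rose, 0 fell and 3 did not pass, with a median difference of 1.86 against 0.05 over all rows tested. Among all tested rows 3.46% were called higher and 3.3% lower. ENSONIG00000009296 (MSTRG.6017) was at 164, 166 and 181 FPKM in the libraries labelled hypoxia and at 31.4, 30.2 and 30.2 FPKM in those labelled control. Libraries of a group agreed closely, and the ratio of means was 5.56 (log2 difference 2.44 ± 0.09 SE, adjusted p = 0.00316). ENSONIG00000009311 (MSTRG.6015) was at 27.5, 16.4 and 23.2 FPKM in the libraries labelled hypoxia and at 2.70, 1.32 and 0.763 FPKM in those labelled control, a ratio of means of 14.0 (log2 difference 3.21 ± 0.32 SE, adjusted p = 0.0109). Both kept their call with any 1 library left out (adjusted p at most 0.0190 and 0.0457). An assembled locus that shares the name of the second (MSTRG.6016) was at 10.4, 8.25 and 9.90 FPKM, against 8.31, 8.71 and 9.34 FPKM in the control libraries (adjusted p = 0.659).

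Set against these rows, krtt1c19e was not the one that differed most. Its ratio to ENSONIG00000009296 was 1.84, 2.24 and 1.31 in the libraries labelled hypoxia and 2.04, 2.91 and 2.78 in those labelled control, with overlap. Its ratio to ENSONIG00000009311 was 10.97, 22.7 and 10.3 in the libraries labelled hypoxia and 23.8, 66.4 and 109.9 in those labelled control, lower throughout. The ratio to zgc:110712 overlapped between the groups, at 0.446, 0.328 and 1.07 in the libraries labelled hypoxia and 0.526, 0.441 and 0.573 in those labelled control. The ratios to cyt1, zgc:171226 and si:ch211-243g18.2 went the other way, with every library labelled hypoxia above every control library. For cyt1 they were 0.243, 0.384 and 0.177 in the libraries labelled hypoxia and 0.0485, 0.0577 and 0.0519 in those labelled control.

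cyt1 did not follow the called rows. It was at 1242, 968 and 1346 FPKM in the libraries labelled hypoxia and at 1323, 1521 and 1616 FPKM in those labelled control, with overlapping groups (log2 difference -0.34 ± 0.16 SE, adjusted p = 0.244). After quantile normalization the same row was called lower (-0.55, adjusted p = 0.0342). The ratio of krt4 to cyt1 was 1.26, 2.04 and 0.902 in the libraries labelled hypoxia and 0.700, 0.719 and 0.633 in those labelled control. Which of these keratins was the most abundant thus differed between libraries: krt4 led cyt1 in hypoxia replicates 1 and 2, and cyt1 led in the other libraries.

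By their locus numbers, which StringTie gives to assembled loci in order along the genome, the keratin rows fall into groups. krt18, krt8 and krt5 carry the numbers 14471, 14473 and 14474, with tns2a at 14472 between them. In the RefSeq annotation of the assembly O_niloticus_UMD_NMBU, krt18a.1 also has krt8 and tns2a among its neighbours within 3 genes. The order differs there, with krt18a.1 between krt8 and tns2a. krt97 and both krt222 rows are numbered 21963 to 21965. ENSONIG00000009311, ENSONIG00000009296, cyt1 and krtt1c19e are numbered 6015, 6017, 6018 and 6021. krt15, at 20735, lies between zgc:110712 at 20734 and zgc:171226 at 20736, both with the type I entry. Neighbouring keratin genes can be near-identical, and reads shared between copies could move values from one to another, so the values within each group are uncertain in that respect.

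Rows of a group did not move as one. In the group of krtt1c19e, 3 rows rose, while MSTRG.6016 and cyt1 did not pass. In the group of krt15, zgc:110712 was at 677, 1134 and 223 FPKM in the libraries labelled hypoxia and at 122, 199 and 146 FPKM in those labelled control. The groups were apart, but the hypoxia libraries spread widely, with a coefficient of variation of 67.2% (log2 difference 1.86 ± 0.59 SE, adjusted p = 0.119). Without hypoxia replicate 3 the difference was 2.51 and the row passed (adjusted p = 0.0452). zgc:171226 was at 25.6, 161 and 99.0 FPKM in the libraries labelled hypoxia and at 103, 39.6 and 89.6 FPKM in those labelled control, a wide overlap (log2 difference 0.06 ± 0.73 SE, adjusted p = 0.972), and the sign of that difference turned on the TPM scale and when any of 3 libraries was left out. The sixth row with the entry, si:ch211-243g18.2, was below 1 FPKM on average and was not tested.

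**Figure D4:**
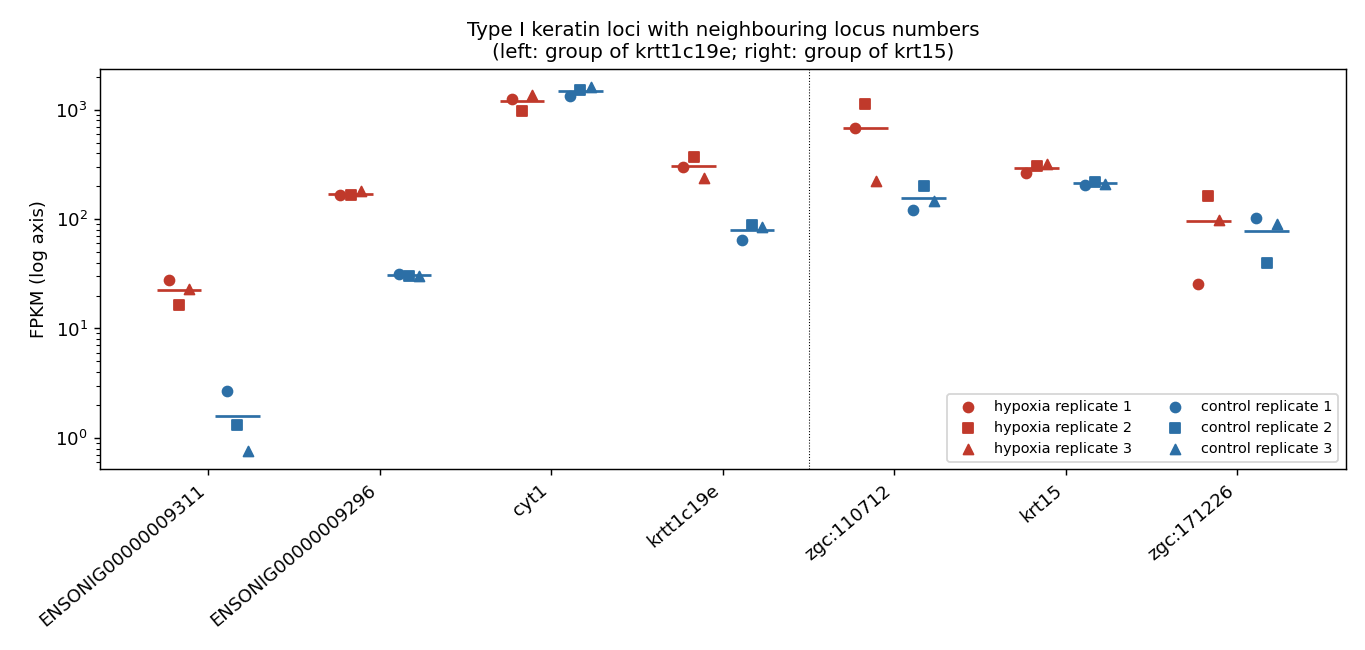
FPKM (log axis) of the type I keratin loci numbered next to krtt1c19e (left of the dotted line) and next to krt15 (right), in the libraries labelled hypoxia (red) and control (blue), with a line at each group's mean. ENSONIG00000009296 is at 164 to 181 FPKM against 30.2 to 31.4 FPKM, while cyt1 and zgc:171226 overlap between the groups.

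The proteins that tie keratin filaments to the membrane were read from a list of 22 symbols of epithelial adhesion, desmosomes and hemidesmosomes. Of its 28 tested rows, 1 rose, 0 fell and 27 did not pass, with a median difference of 0.16 against 0.05 over all rows tested. Among all tested rows 3.46% were called higher and 3.3% lower, so 1 of 28 is near the background. The row that rose was a locus of DST (MSTRG.4463), which codes for a plakin that links keratin to hemidesmosomes. It was at 4.25, 5.01 and 4.52 FPKM in the libraries labelled hypoxia and at 2.35, 2.32 and 2.28 FPKM in those labelled control (log2 difference 0.75 ± 0.12 SE, adjusted p = 0.0250). That call was lost with any library except hypoxia replicate 2 left out.

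Among 16 tested rows of epithelial transcription factors, 2 fell and 0 rose, against 3.3% and 3.46% of all tested rows, and the median was -0.13. Both are factors of the ETS family found in epithelia. elf3 was at 58.3, 50.2 and 48.0 FPKM in the libraries labelled hypoxia and at 85.4, 111 and 92.1 FPKM in those labelled control (log2 difference -0.86 ± 0.14 SE, adjusted p = 0.0248). ehf was at 25.3, 27.0 and 30.7 FPKM in the libraries labelled hypoxia, against 51.4, 95.8 and 57.8 FPKM in the control libraries (log2 difference -1.22 ± 0.24 SE, adjusted p = 0.0418). Neither group pair overlapped, but 0 rows of the list were called with any library except control replicate 1 left out. tp63, the factor of basal epithelial cells, was at 32.0, 30.3 and 30.4 FPKM in the libraries labelled hypoxia and at 22.0, 26.2 and 23.6 FPKM in those labelled control (adjusted p = 0.0937), and was named after its values were seen.

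Other intermediate filaments were read from a list of 15 symbols, of which des, nes, lmnb1, nefm and bfsp1 matched no row. The symbol vim matched only viml, which at a mean of 0.666 FPKM was too low to be tested. Of 4 tested rows 0 passed in limma, with 2 at an unadjusted p under 0.05, against 25.4% of all tested rows. Of these 2, synm MSTRG.3788 was at 5.46, 5.85 and 6.14 FPKM in the libraries labelled hypoxia. In the control libraries it was at 3.62, 4.28 and 3.19 FPKM (limma adjusted p = 0.0688). The other, lmna MSTRG.12066, reached the minimum of 1 FPKM only through the libraries labelled hypoxia, where it is high. It was at 1.15, 1.76 and 1.51 FPKM there and at 0.641, 0.622 and 0.557 FPKM in the control libraries (limma adjusted p = 0.151). The lamin rows LMNA MSTRG.17435 and lmnb2 lay below krt18 in mean level and above krt1-c5 and the krt222 rows. The most abundant row matched by the list was the nuclear lamin gene LMNA (MSTRG.17435), at 29.8, 32.2 and 19.7 FPKM in the libraries labelled hypoxia and at 28.1, 40.1 and 45.1 FPKM in those labelled control (adjusted p = 0.306). lmnb2, another lamin, was at 32.0, 22.6 and 19.7 FPKM, against 20.8, 31.8 and 30.6 FPKM in the control libraries (adjusted p = 0.713).

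The label of gill epithelium was checked against markers. epcam, an adhesion molecule of epithelial cells, was at 338, 315 and 189 FPKM in the libraries labelled hypoxia and at 370, 441 and 276 FPKM in those labelled control (MSTRG.18716, adjusted p = 0.434). cldn7b, a tight junction protein, was at 58.7, 129 and 103 FPKM in the libraries labelled hypoxia and at 90.9, 246 and 120 FPKM in those labelled control (adjusted p = 0.455). The groups overlapped in both of these rows. Another epcam locus, MSTRG.18717, was far lower, at 1.18, 5.50 and 2.08 FPKM in the libraries labelled hypoxia and at 8.78, 15.9 and 13.2 FPKM in those labelled control. All its hypoxia values lay below the control values, and the difference of -1.92 ± 0.43 (SE) missed the threshold (adjusted p = 0.0575). Of 7 tested rows of surface epithelium markers 0 passed in limma, with 2 at an unadjusted p under 0.05, against 25.4% of all tested rows, and 1 passed without hypoxia replicate 2. Their median was -0.09 and their summed level was 370 to 523 FPKM in the libraries labelled hypoxia and 478 to 776 FPKM in those labelled control. A row for cdh1 was not found by the symbol match.

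Markers of other gill cells moved with the groups, and their counts stand beside 3.46% of all tested rows called higher and 3.3% called lower. Among connective tissue cells, 5 of 6 tested fibroblast rows rose and 1 fell, with a summed level of 347 to 474 FPKM in the libraries labelled hypoxia and 128 to 161 FPKM in those labelled control. col1a1 (MSTRG.10962), a chain of type I collagen, was at 161, 128 and 130 FPKM in the libraries labelled hypoxia and at 35.0, 47.1 and 39.9 FPKM in those labelled control (adjusted p = 0.00923). The row that fell was pdgfra, at 33.1, 27.2 and 29.3 FPKM in the libraries labelled hypoxia and 41.9, 43.6 and 51.8 FPKM in those labelled control. Its log2 difference was -0.60 (limma adjusted p = 0.0496). Of the 6 fibroblast calls 2 were left when hypoxia replicate 1 or control replicate 2 was dropped, and 3 when either replicate 3 was dropped. Cartilage and bone markers rose in 4 of 13 tested rows (2 without control replicate 2 or 3), summing to 267 to 414 FPKM in the libraries labelled hypoxia and 80.6 to 85.7 FPKM in those labelled control. The called rows were the col10a1 loci MSTRG.19715, MSTRG.6699 and MSTRG.19716, and col2a1b. The most abundant, MSTRG.19715, was at 250, 150 and 226 FPKM against 32.3, 30.4 and 35.6 FPKM in the control libraries. The rows sox9a, SOX9 and acana overlapped between the groups. Of the 13, 6 rows, 1 of them called, reached the minimum for testing only through the libraries labelled hypoxia. With a minimum of 5 FPKM 2 of 4 tested rows were called, beside 1667 of 11390 rows in all.

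Skeletal muscle markers rose in 6 of 11 tested rows, with sums of 721 to 906 FPKM in the libraries labelled hypoxia and 361 to 473 FPKM in those labelled control. Their count was 3 without hypoxia replicate 2, 1 without hypoxia replicate 3 or control replicate 2, and 0 without any of the other libraries. T cell and NK cell markers rose in 3 of 6 tested rows, summing to 100.3 to 118 FPKM in the libraries labelled hypoxia and 48.2 to 65.4 FPKM in those labelled control. That count was 1 without control replicate 1 or 3 and 0 without hypoxia replicate 1, hypoxia replicate 3 or control replicate 2. Macrophage markers rose in 2 of 4 tested rows, cd74b and csf1ra, and summed to 2449 to 2938 FPKM in the libraries labelled hypoxia and 981 to 1187 FPKM in those labelled control. Nearly all of that sum came from cd74b MSTRG.1327, at 2423, 2911 and 2709 FPKM in the libraries labelled hypoxia and 965, 1170 and 1107 FPKM in those labelled control. Another cd74b locus, MSTRG.1328, did not pass (log2 difference -0.20, limma adjusted p = 0.430). The symbols mpeg1 and marco matched no row. In the T cell and NK cell list, eomesa and the called eomesb likewise passed the minimum only through the libraries labelled hypoxia. The part of these cell types in the keratin levels was not tested.

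The remaining marker lists held 0 called rows each in limma, and their counts at an unadjusted p under 0.05 stand beside 25.4% of all tested rows. In the ionocyte list 3 of 8 tested rows had such a p. There 1 row passed without hypoxia replicate 2, on the TPM scale, with median-of-ratios scaling and with a minimum of 5 FPKM. In the list of endothelium and pillar cells these were 3 of 9 rows. In the erythrocyte list they were 0 of 4, and 1 row passed without control replicate 1. The symbols hbaa1, hbba1, hba, hbb and epb42 matched no row, so that list holds no hemoglobin row. In the mucous cell list muc2, muc5 and fcgbp matched no row. Of the 3 mucous cell rows, agr2, which helps fold mucins, had an unadjusted p of 0.00653 and was at 159, 279 and 103 FPKM in the libraries labelled hypoxia and at 64.0, 60.2 and 61.7 FPKM in those labelled control (adjusted p = 0.0698). Its libraries labelled hypoxia ranked with replicate 2 highest and replicate 3 lowest, an order easily met among 3 libraries. The members krt4, krt5, krtt1c19e, krt97, krt1-c5 and krt222 MSTRG.21964 shared that order, while krt8, krt15, krt18 and krt222 MSTRG.21965 did not. The other mucous cell rows, foxa3 and SPDEF, overlapped between the groups.

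**Figure D5:**
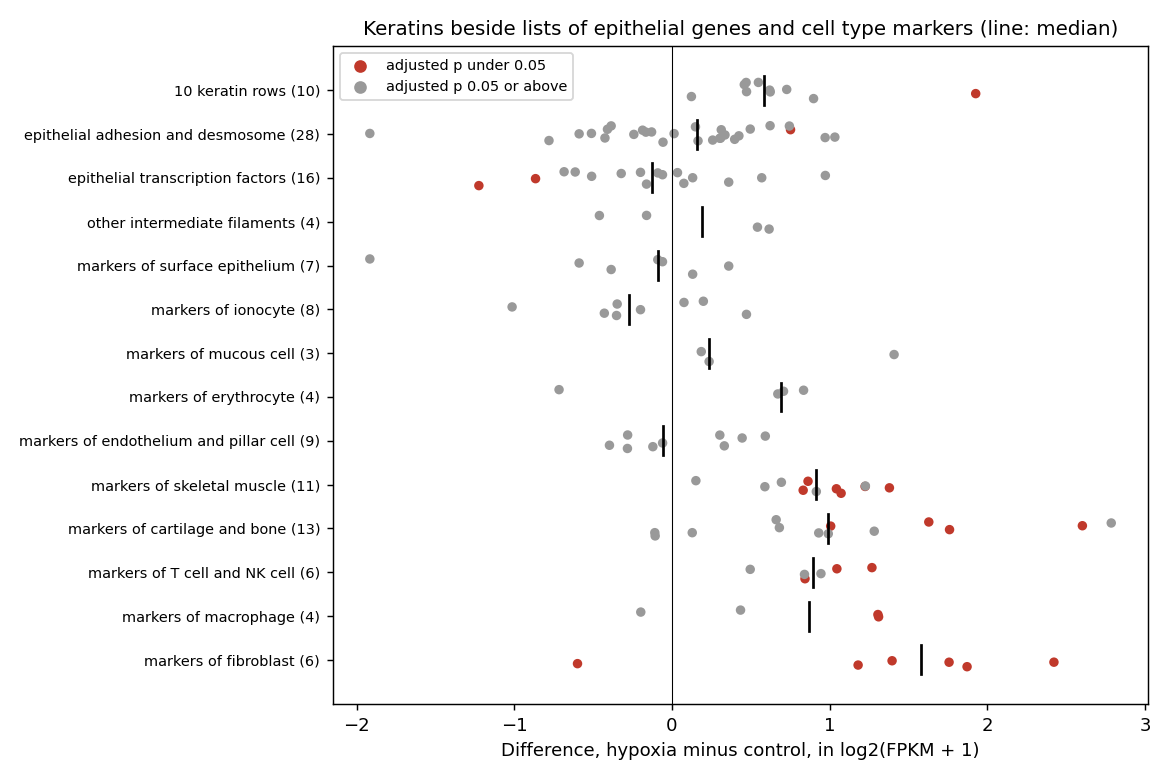
Each point is the difference of 1 tested row, hypoxia minus control on the log2(FPKM + 1) scale, for the 10 keratin rows and for lists of epithelial genes and cell type markers, with the number of tested rows in brackets and a line at the median. Red marks an adjusted p under 0.05. The keratin median is 0.58, the medians of epithelial adhesion and epithelial transcription factors are 0.16 and -0.13, and the fibroblast median is 1.58.

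The rows most like the summed keratin level across the 6 libraries were sought among 4124 rows with a gene symbol, a mean of at least 10 FPKM and no keratin name, by the root mean square difference of log2(FPKM + 1) after centring each on its mean. They were klf2a, a Krüppel-like transcription factor (difference 0.055), the orphan receptor gene gpr25 (0.057) and hdac7b, a histone deacetylase (0.104). klf2a was at 24.5, 29.5 and 22.0 FPKM in the libraries labelled hypoxia and at 13.2, 16.9 and 15.7 FPKM in those labelled control (adjusted p = 0.0529). With 6 libraries and so many rows, close profiles can be found for many patterns.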

How the data were processed

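Gene levels of 6 gill libraries were deposited by the authors as FPKM, and the submitters' processing notes name HISAT and StringTie for them. Neither their versions nor the genome build or annotation is given in the sources used here. All 6 columns matched a library by title, and 0 columns of values were left over. Of 40538 rows, 37062 carry StringTie locus identifiers. Gene names come from the table. The RefSeq table (O_niloticus_UMD_NMBU) matched 0 identifiers and 4 of 9 keratin symbols, and was used only for which genes neighbour each other. No sequence was used here.

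Testing was restricted to rows averaging 1 FPKM or more, and was done on log2(FPKM + 1) with limma 3.58.1 in R 4.3.3 (lmFit, eBayes with trend, two-sided, no covariate), adjusted by Benjamini-Hochberg over all 25111 rows at 0.05. Differences are hypoxia minus control. On simulated data with the spreads of these rows, 23 of 100 rows changed by 1 and 65 of 100 changed by 2 were called. There were 7 false calls among 24911 unchanged rows. The simulated rows were drawn independently, and far fewer were changed than the 1699 called in the data. The counts thus do not give the share of real changes that the test would call here. The depth is unknown, so precision is given only as the spread over 3 libraries.

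The keratin rows and all lists were chosen with earlier results of these data known. Named are all 10 keratin rows, the row just outside, and of each list the rows past the threshold with the 3 smallest p or else the 2 most abundant. The text gives some of these. Rows with the type I keratin orthology entry, MSTRG.6016 and tp63 were added after their values were seen. The table's orthology entries are not always right, since krt18 shares K03258 with eif4bb and eif4h. Alternatives were a pseudocount of 0.1, no filter, a minimum of 5 FPKM, TPM, median-of-ratios and quantile scaling, the replicate block, each library left out, and, after seeing the data, the 11 hemoglobin rows left out.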

Additional observations from a re-analysis of the deposited data

How the results depend on the processing

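The number of the 10 keratin rows called, 1 on the FPKM scale, was 3 with a minimum mean of 5 FPKM (krt5, krt15 and krtt1c19e, of 7 tested), 2 after quantile normalization (krt15 and krtt1c19e), and 0 to 1 with 1 library left out. With the minimum of 5 FPKM, 1667 of 11390 tested rows were called in all, a larger share than the 1699 of 25111 in the main fit. In 14 alternatives the difference of krtt1c19e was 1.77 to 2.12, and all tested keratin rows kept a difference above 0. Its call was lost without hypoxia replicate 1 and with the replicate block. That block left 0 keratin rows and 2 rows in all called (0 higher and 2 lower). Same-numbered libraries did not deviate together (correlations -0.056, -0.044 and -0.116), and no library correlated best with its own number. The labels do not say whether the numbers pair the libraries, and such correlations over 3 libraries a group cannot exclude a pairing. Of all rows, 1699 were called, and 1058 without a filter on low values (519 higher and 539 lower). With 1 library left out the calls numbered 260 to 1627 (106 to 818 higher and 154 to 809 lower). The difference of the log2 of the summed keratin FPKM, 0.61, was 0.50 to 0.72 in 10 alternatives. The difference of zgc:171226 was -0.047 on the TPM scale, -0.0047 with median-of-ratios scaling and -0.49 to 0.81 with 1 library left out. ENSONIG00000009296 and ENSONIG00000009311 lost their calls with the block alone (adjusted p = 0.0625 and 0.0738). With the block 0 rows of any list of epithelial genes or markers were called. With a minimum of 5 FPKM the calls numbered 3 of 22 tested adhesion rows, 4 of 12 transcription factor rows, and 1 each among surface epithelium, ionocyte, mucous, and endothelium and pillar cell markers. These counts stand beside 1667 of 11390 rows called in all at that minimum. Without a filter they numbered 0 of 35 adhesion, 1 of 16 transcription factor, 3 of 16 muscle and 1 of 5 macrophage rows. In all, 1058 of 40538 rows were called there. The causes were not tested. No row with a krt name outside the 10 was called, and the 1 such row could be tested only without a filter. With 3 libraries a group and unknown depth, krt5 and krt15 lay near the threshold (limma adjusted p = 0.0605 and 0.0542). Differences of 0.47 in krt97 and 0.46 in krt18, close to the 0.47 of krt15, lay further from it (adjusted p = 0.116 and 0.276).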
